A study of Mus musculus with 6 samples.

Results

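The serpins are a family of protease inhibitors, and the genes described here are the rows of the deposited mouse table whose gene name starts with Serpin and a clade letter from a to i, with pseudogene names left out. There were 63 such genes among 54532 in the table. Counts of RNA-seq reads and FPKM values were given for 6 libraries of wild-type 3T3 cells, a mouse fibroblast line that the labels call adipocytes. Of these, 3 came from cells given 200 µM baicalin, a flavone glucuronide of Scutellaria roots, and 3 from cells given DMSO. No source says whether the replicates were grown as separate cultures, and the p-values therefore speak only for the scatter among these libraries, which may be technical.

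Most serpins trap a protease by offering it an exposed loop as bait. When the protease cuts the loop, the serpin springs into a new shape and holds the enzyme in a covalent complex that neither partner survives. Clade letters group the family by sequence: clade A holds mostly secreted plasma proteins of the liver, clade B mostly intracellular inhibitors without a signal peptide, and the smaller clades hold antithrombin (C), heparin cofactor II (D), inhibitors of serine proteases outside cells (E), antiplasmin and a neurotrophic factor (F), the C1 inhibitor (G), a collagen chaperone (H) and neuroserpin (I). Some members, among them the collagen chaperone, inhibit no protease.

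Total counts ran from 17598666 to 18326874 reads in baicalin libraries and from 16730594 to 17711950 in DMSO libraries, so that a gene without a read could stand at up to 0.180 CPM in the library with the smallest TMM-scaled total, a limit that covers counting error only. Over all tested genes 33.6% were called higher in baicalin and 34.1% lower, by the test described below. Of 8 adipocyte markers, 4 had enough reads to test and all 4 were lower in baicalin. Their summed level was 298 to 312 CPM in baicalin and 428 to 503 CPM in DMSO, and Lep and Slc2a4 had under 10 reads in all libraries together. The 7 fibroblast markers summed to 8536 to 8790 CPM in baicalin and 12494 to 13014 CPM in DMSO, with 2 higher and 4 lower. Most of that sum came from the collagen genes Col1a1 and Col1a2. Their means were 1973 and 5421 CPM in baicalin, against 2895 and 7964 CPM in DMSO, so the sum says little about the other markers. Markers of liver cells (at most 0.349 CPM in baicalin and 0.164 CPM in DMSO for 6 genes together) and of endothelium (at most 0.233 CPM in baicalin and 0.548 CPM in DMSO for 4 genes) were near 0. In bulk RNA, fewer cells of a type and less RNA per cell cannot be told apart.

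Transcripts of 7 of the 9 clades were expressed, taking a mean of at least 1 FPKM in either group as the mark of expression. In baicalin 20 serpins of 7 clades reached it, and in DMSO 15 serpins of 5 clades. The 5 genes that reached it in baicalin alone were Serpina3k, Serpinb1b, Serpinb2, Serping1 and Serpini1, so clades G and I count through baicalin only. Clade A had 8 expressed genes of 25, all of them copies of Serpina3, and clade B had 7 of 27. Clades E to I had 1 expressed gene each, among them Serpinf1 (F), Serping1 (G), Serpinh1 (H) and Serpini1 (I). Clades C and D were not expressed by this mark: Serpinc1, antithrombin, had 15 reads in all libraries together, and 2942 bp of its exons are shared with Zbtb37 on the opposite strand, while Serpind1, heparin cofactor II, had 8 reads.

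The summed serpin level was 1418, 1316 and 1323 FPKM in the baicalin libraries, against 727, 717 and 719 FPKM in the DMSO libraries. The groups did not overlap, with every baicalin library higher on the FPKM scale. Clade A supplied 44.5% ± 1.83 of the summed serpin FPKM in baicalin and 15.2% ± 0.41 in DMSO (SD, n = 3 each). The share of clade H was 31.3% ± 1.013 in baicalin and 44.8% ± 0.76 in DMSO, although its only gene rose, and that of clade F was 16.2% ± 0.54 in baicalin and 31.2% ± 0.46 in DMSO (SD, n = 3 each). Clade B supplied 4.78% ± 0.22 in baicalin and 7.21% ± 0.04 in DMSO (SD, n = 3 each).

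**Figure D1:**
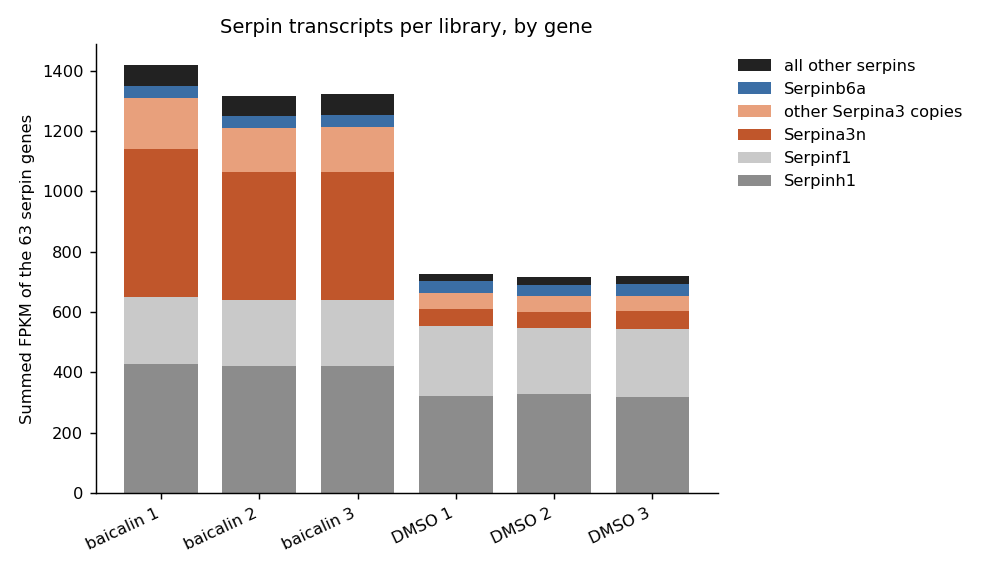
Stacked bars of the summed FPKM of the 63 serpin genes in each of the 3 baicalin and 3 DMSO libraries, split by gene or gene group. The Serpina3n and other Serpina3 segments are taller in all 3 baicalin libraries, while Serpinf1 keeps nearly the same height in both groups.

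Of the 63 genes, 23 had enough reads to test, 13 had no read in any library, 17 had 1 to 9 reads in all libraries together and 10 had 10 to 52. Among the 23, baicalin gave 18 higher and 1 lower (edgeR's quasi-likelihood test, Benjamini-Hochberg adjusted p under 0.05 over all 13728 tested genes), and 4 were not called. Over all tested genes 33.6% were called higher and 34.1% lower, so that 49.7% of all calls were higher, against 37.4% with scaling by library size alone, which left the serpins at 18 higher and 2 lower. A rise of at least 2-fold was called for 13 serpins, and for 5.24% of all tested genes. No overlap between the groups was seen for 21 of the 23 serpins and for 70.2% of all tested genes. The median log2 fold change was 1.38 over the 23 serpins and 0.00140 over all tested genes. These counts describe the genes that passed the filter and not the whole family: 21 of the 23 reached the filter's level in the DMSO libraries alone, while Serpinb1b and Serpinb9g reached it only in baicalin.

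**Figure D2:**
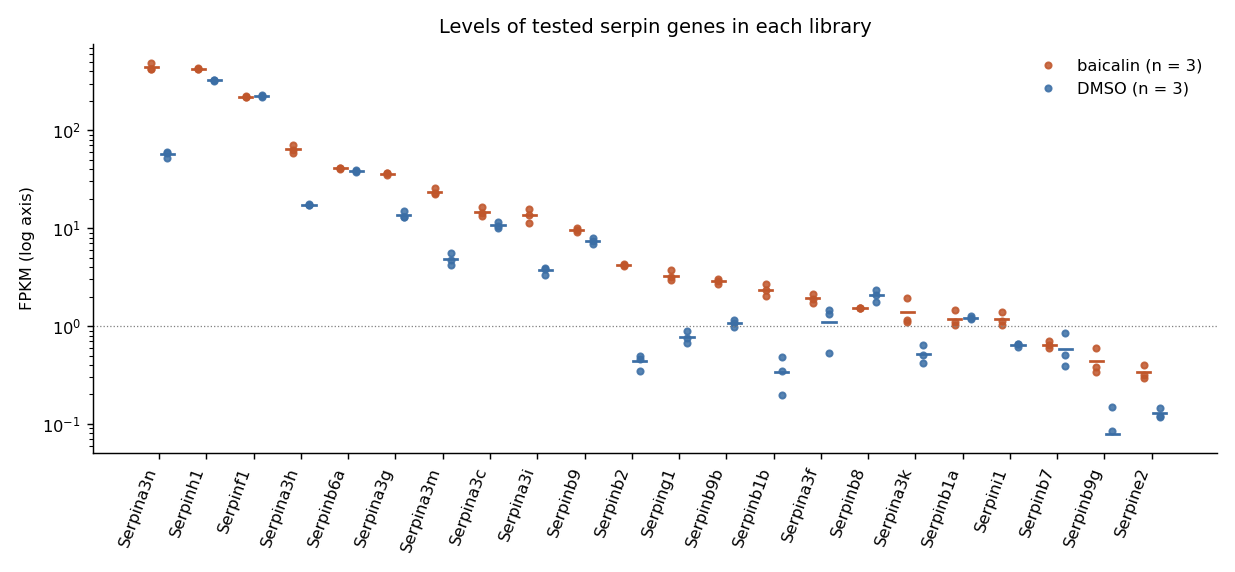
FPKM on a log axis of tested serpin genes, with 1 point per library, baicalin left and DMSO right of each position, and a line at the group mean; the dotted line marks 1 FPKM, and a library at 0 (Serpinb9g in DMSO) is not drawn. Serpina3n stands at 425 to 491 FPKM in baicalin, against 52.4 to 60.5 FPKM in DMSO.

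By FPKM, Serpina3n was the highest serpin in baicalin at 447 ± 38.5 FPKM, followed by Serpinh1 at 423 ± 4.04 FPKM and Serpinf1 at 219 ± 2.35 FPKM (SD, n = 3 each). The ranges of the first 2 of these overlapped, so their order across libraries is not beyond their spread. Within each baicalin library Serpina3n was above Serpinh1, at 491 against 427, 424 against 422 and 425 against 420 FPKM. In DMSO the order was Serpinh1 at 323 ± 4.30 FPKM, Serpinf1 at 225 ± 4.87 FPKM, Serpina3n at 57.0 ± 4.20 FPKM and Serpinb6a at 38.4 ± 1.14 FPKM, each separated from the next by more than the spread. Serpinb2 was at position 12 in baicalin with 4.21 ± 0.09 FPKM and at position 20 in DMSO with 0.436 ± 0.08 FPKM.

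The Serpina3 genes carried most of the change. In mouse they form an expanded group of secreted and cytosolic inhibitors that corresponds to the single human alpha-1-antichymotrypsin gene, an acute-phase protein. The table holds 11 of them, in 1 run of the clade A cluster on chromosome 12 (24 genes, mm10, positions 103614786 to 104414329). All 8 that could be tested were called higher (33.6% over all tested genes), 7 of them with the same call on leaving out any single library. Serpina3a had 1 read, and Serpina3b and Serpina3j had none.

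Serpina3n (ENSMUSG00000021091, chromosome 12, 104406729 to 104414329, plus strand), an inhibitor of granzyme B and cathepsin G, stood at 990, 865 and 863 CPM in the baicalin libraries, against 119, 107 and 124 CPM in the DMSO libraries. Every baicalin library lay far above every DMSO library. The rise was 7.75-fold (log2 fold change 2.95, SE 0.07, adjusted p = 5.06e-12), and 53 of the 13728 tested genes had a larger log2 fold change. Serpina3n alone supplied 33.0% ± 1.43 of the summed serpin FPKM in baicalin and 7.91% ± 0.56 in DMSO (SD, n = 3 each).

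Serpina3h had 98.5, 82.1 and 88.8 CPM in baicalin, against 24.4, 24.5 and 24.9 CPM in DMSO, a 3.65-fold rise (adjusted p = 9.60e-31). Serpina3g, known as Spi2A and an inhibitor of lysosomal cathepsins that acts in the cytosol, had 75.7, 72.4 and 75.02 CPM in baicalin, against 26.9, 31.3 and 27.2 CPM in DMSO, a 2.61-fold rise (adjusted p = 7.74e-27). In both genes the lowest baicalin library was more than double any DMSO library. Serpina3m had 43.0, 38.6 and 37.6 CPM in baicalin, against 7.10, 8.12 and 9.48 CPM in DMSO, and rose 4.82-fold (adjusted p = 7.78e-28). Serpina3i had 33.7, 29.7 and 24.9 CPM in baicalin, against 8.72, 7.38 and 8.38 CPM in DMSO, and rose 3.60-fold (adjusted p = 6.40e-20). The groups did not overlap for either.

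The smallest rise of the group was that of Serpina3c (chromosome 12, 104146382 to 104153870, minus strand), with 35.8, 30.9 and 29.3 CPM in baicalin, against 25.6, 23.2 and 22.1 CPM in DMSO (1.35-fold, log2 fold change 0.44, SE 0.08, adjusted p = 4.01e-06). Every baicalin library was above every DMSO library, by a narrow margin. Serpina3k had 65, 41 and 38 reads in baicalin, against 24, 15 and 19 reads in DMSO, a 2.61-fold rise. Serpina3f had 64, 76 and 83 reads in baicalin, against 56, 58 and 22 reads in DMSO, a 1.72-fold rise (adjusted p = 0.00554) that rested on DMSO replicate 3: without it the log2 fold change was 0.45 and not called (adjusted p = 0.0604).

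In chromosomal order the log2 fold changes were 0.44 for Serpina3c, 0.78 for Serpina3f, 1.38 for Serpina3g, 1.87 for Serpina3h, 1.85 for Serpina3i, 1.39 for Serpina3k, 2.27 for Serpina3m and 2.95 for Serpina3n. Values were thus smallest at one end of the run and largest at the other, with Serpina3i and Serpina3k out of order. The ratio of Serpina3n to Serpina3c in FPKM was 29.7, 30.0 and 31.6 in the baicalin libraries, against 4.99, 4.95 and 6.01 in the DMSO libraries. These ranges were apart, and the exact 2-sided permutation test gave p = 0.1, the smallest that 3 against 3 libraries allow (0.1 after adjustment over the 4 ratios computed here).

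**Figure D3:**
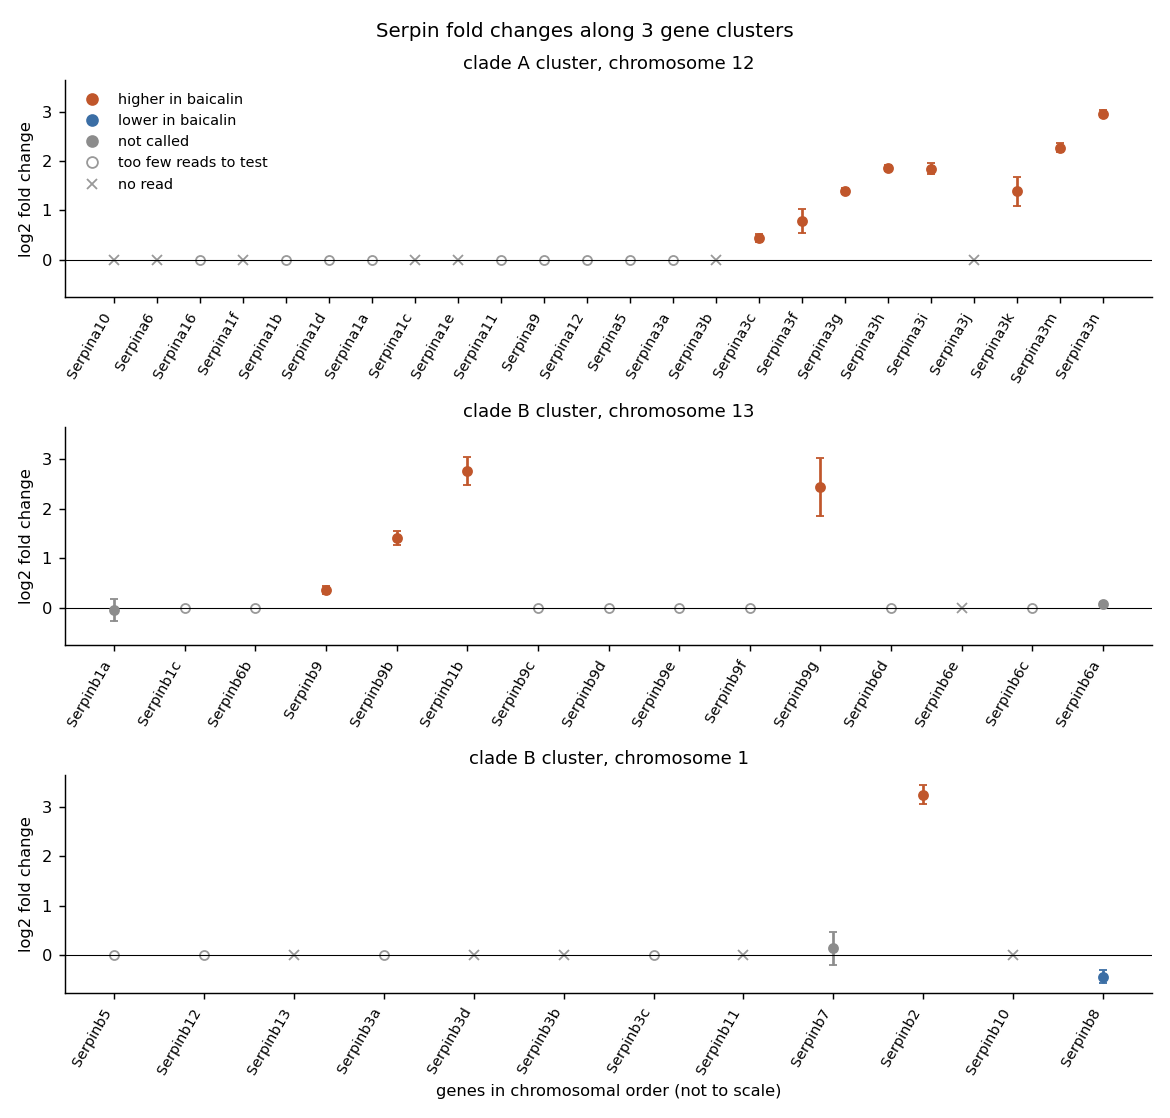
Log2 fold changes (baicalin over DMSO, bars SE) of serpin genes in 3 gene clusters, in chromosomal order and not to scale; open circles (too few reads to test) and crosses (no read) are placed at the zero line and have no fold change. The tested genes of the chromosome 12 cluster are all Serpina3 copies at its right end, running from 0.44 for Serpina3c to 2.95 for Serpina3n.

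Copies of Serpina3 resemble each other, so some reads could have been counted for a neighbour or not at all. Of the distinct 50-base words in the annotated transcripts, between 78.1% (Serpina3h) and 95.7% (Serpina3c) occurred in no transcript of another gene, with 93.1% for Serpina3n. Exons of Serpina3k and Serpina3m overlap on the same strand over 60 bp. With the 11 copies summed into 1 row, a setting added after seeing the data, their level was 1285, 1125 and 1125 CPM in baicalin, against 216, 206 and 218 CPM in DMSO (log2 fold change 2.46, SE 0.05, adjusted p = 8.99e-32).

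The sequences upstream of these genes are shown because their responses range from 1.35-fold to 7.75-fold although the windows are related. RefSeq's promoter table (GRCm38.p6, the assembly of mm10) has windows for 53 of the 63 genes, of which 17 were tested. The 250 bases before the annotated start site are given 5′ to 3′ on the gene's strand, at chr12:104406458-104406707 for Serpina3n, chr12:104235897-104236146 for Serpina3g, chr12:104262872-104263121 for Serpina3i, chr12:104214294-104214543 for Serpina3f and chr12:104153873-104154122 (minus strand) for Serpina3c. Capitals mark matches on either strand to TTCNNNGAA, the palindrome bound by STAT factors, and to a form of the NF-kB motif (GGG, any 3 bases, then TTCC). Where both occur in a window, the NF-kB letters come first.
Serpina3n: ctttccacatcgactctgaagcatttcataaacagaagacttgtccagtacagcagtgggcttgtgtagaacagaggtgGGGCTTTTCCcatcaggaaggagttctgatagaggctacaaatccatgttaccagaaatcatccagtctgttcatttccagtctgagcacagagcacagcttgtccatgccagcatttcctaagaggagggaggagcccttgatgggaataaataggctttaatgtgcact
Serpina3g: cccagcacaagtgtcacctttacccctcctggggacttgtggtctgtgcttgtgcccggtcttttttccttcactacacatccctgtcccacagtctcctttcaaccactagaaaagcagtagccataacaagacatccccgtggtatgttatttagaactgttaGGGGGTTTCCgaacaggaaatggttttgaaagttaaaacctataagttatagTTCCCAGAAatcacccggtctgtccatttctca
Serpina3i: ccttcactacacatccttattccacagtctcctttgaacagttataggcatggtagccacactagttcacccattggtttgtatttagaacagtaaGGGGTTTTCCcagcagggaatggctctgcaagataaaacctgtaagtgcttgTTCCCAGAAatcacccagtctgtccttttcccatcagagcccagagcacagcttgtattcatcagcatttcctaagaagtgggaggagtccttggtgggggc
Serpina3f: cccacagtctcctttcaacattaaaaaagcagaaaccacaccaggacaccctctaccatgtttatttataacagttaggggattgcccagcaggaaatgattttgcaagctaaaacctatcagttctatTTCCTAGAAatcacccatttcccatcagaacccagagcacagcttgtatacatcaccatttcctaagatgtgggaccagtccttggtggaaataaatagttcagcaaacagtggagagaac
Serpina3c: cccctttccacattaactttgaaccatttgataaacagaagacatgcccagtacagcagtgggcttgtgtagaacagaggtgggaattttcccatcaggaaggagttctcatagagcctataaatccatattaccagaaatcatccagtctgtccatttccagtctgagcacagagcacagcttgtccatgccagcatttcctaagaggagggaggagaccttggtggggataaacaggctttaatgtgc

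The windows of Serpina3n and Serpina3c, including 50 bases after the start site, had 275 identical bases of 294 aligned (93.5%), the closest pair of the 8 Serpina3 windows, while these genes had the largest and the smallest rise of the group. Serpina3f and Serpina3g were identical at 83.7% of 202 aligned bases and Serpina3f and Serpina3i at 83.3% of 269. These shares leave out gap bases, of which there were 12, 196 and 62 for the pairs in the order given. The 8 windows include the untested Serpina3a, Serpina3b and Serpina3j, while Serpina3h, Serpina3k and Serpina3m had no window. The STAT letters stood at position -33 in Serpina3g, -102 in Serpina3i and -121 in Serpina3f, counted from RefSeq's start site, and the NF-kB letters at -85 in Serpina3g, -154 in Serpina3i and -171 in Serpina3n. For Serpina3g the 250 bases end at 104236146, while the GENCODE M21 annotation starts the gene at 104236245. For Serpina3n these ends are 104406707 and 104406729, and for Serpina3i and Serpina3f they adjoin. The positions therefore depend on the annotation and cannot be compared directly between genes. Over all 17 windows of tested serpins TTCNNNGAA occurred in 5 and the NF-kB letters in 3, and over all 32851 windows of the table they occurred in 8.30% and 5.56%. The 5 were Serpina3f, Serpina3g, Serpina3i, Serpinb2 (position 11, after the start site) and Serpinb6a, which was not called. The NF-kB letters were in Serpina3 windows alone. At the place of the Serpina3n match, Serpina3c also has GGG and TTCC, but further apart than the pattern allows. The lack of a match in Serpina3c thus rests on the pattern chosen. Because windows of related copies are not separate cases, no excess over all windows can be read from these counts. TGANTCA, the AP-1 motif, was in 3 of the 17 (7.81% of all windows), namely Serpinb2, Serpinb7 (not called) and Serpinb8 (called lower). TGACNNNGC, the core bound by NRF2, was in 0 (12.4%). GCGTG, the core bound by the aryl hydrocarbon receptor, was in 1, Serpinb6a (32.4%). The motifs were searched on both strands, and a match is a run of letters and not a shown binding site.

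The rest of clade A, whose best known members are plasma proteins of the liver, was nearly silent. Its 14 genes, which include alpha-1-antitrypsin (Serpina1a to Serpina1e), the steroid and thyroid hormone carriers Serpina6 and Serpina7, and the adipokine vaspin (Serpina12), summed to 0.491 ± 0.15 FPKM in baicalin and 0.482 ± 0.03 FPKM in DMSO (SD, n = 3 each), and none could be tested. The most reads were those of Serpina1a, with 8, 6 and 4 in baicalin, against 13, 13 and 8 in DMSO, and of Serpina1b, with 13, 11 and 8 in baicalin, against 1, 2 and 6 in DMSO. Reads of these near-identical copies may have been assigned to the wrong one. Serpina12 had 1 read in all.

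Serpine2 of clade E, protease nexin-1, which inhibits thrombin and urokinase, was low, with 40, 46 and 56 reads in baicalin, against 18, 21 and 18 reads in DMSO (2.61-fold, adjusted p = 2.36e-05). Serpine3 had 9 reads in all and shares 348 bp of exon with Ints6 on the opposite strand.

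Among inhibitors of plasminogen activation in other clades, Serpinb2 and Serpini1 rose. Serpinb2, PAI-2, an inhibitor of urokinase found in monocytes and keratinocytes, had 161, 169 and 170 reads in baicalin, against 15, 19 and 21 reads in DMSO. It rose 9.51-fold, the largest rise of the family (log2 fold change 3.25, SE 0.20, adjusted p = 6.65e-21), and 37 tested genes had a larger log2 fold change. Its exons overlap those of Serpinb10 on the same strand over 291 bp, and Serpinb10 had no read. Serpini1, neuroserpin, which inhibits tissue-type plasminogen activator, had 8.004, 10.1 and 7.40 CPM in baicalin, against 4.71, 4.69 and 4.38 CPM in DMSO, with no overlap (1.85-fold, adjusted p = 9.62e-07). Serpinf2, antiplasmin, was too low to test, with 38 reads in all.

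Of 14 listed genes of plasminogen activation, the enzymes and partners of this system, 10 were tested, with 5 higher and 4 lower and a median log2 fold change of 0.06. Here and in the lists that follow, the shares over all tested genes are 33.6% higher and 34.1% lower, with a median of 0.00140. Plat, tissue-type plasminogen activator, was at 95.2 ± 6.98 CPM in baicalin and 148 ± 2.64 CPM in DMSO (SD, n = 3 each, log2 fold change -0.64), and Plau, urokinase, was lower as well, at 3.06 ± 0.63 CPM in baicalin and 5.03 ± 1.34 CPM in DMSO (log2 fold change -0.71, adjusted p = 0.00186), with overlapping groups and no call on the unfiltered log2(FPKM + 1) scale (adjusted p = 0.109). The urokinase receptor gene Plaur was higher (0.93), as was Lrp1 (0.55), whose product clears protease-serpin complexes. S100a10, a plasminogen receptor subunit, fell by 1.004 on the log2 scale and Plgrkt, a gene of a plasminogen receptor, by 0.58, and the matrix metalloproteinase genes Mmp3 (2.66) and Mmp13 (3.88) rose. Plg, plasminogen itself, and Vtn, vitronectin, had no read.

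Among the thrombin and coagulation genes 8 of 17 were tested, with 4 higher and 4 lower (median 0.10). The endothelial protein C receptor gene Procr (log2 fold change 1.20), Pros1 (0.46) and the thrombomodulin gene Thbd (0.38) were higher, and the tissue factor gene F3 (-0.31), the inhibitor gene Tfpi (-0.34) and the thrombin receptor gene F2r (-0.17) were lower. Thrombin itself, F2, had 1 read in all.

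Clade B, the intracellular serpins, had 5 genes called higher, 1 lower and 3 not called, against 33.6% higher and 34.1% lower over all tested genes. The highest member, Serpinb6a, whose human counterpart inhibits cathepsin G, had 216, 217 and 216 CPM in baicalin, against 211, 199 and 208 CPM in DMSO. Despite separate ranges the difference of 0.07 on the log2 scale (SE 0.04) missed the threshold (adjusted p = 0.104). Without the low-count filter it passed (adjusted p = 0.0282), and its sign turned with scaling by library size alone (-0.06, not called). On the opposite strand Nqo2 shares 762 bp of exon with it, 1110046J04Rik 584 bp and Ripk1 241 bp.

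Serpinb9, the inhibitor of granzyme B, had 33.9, 31.8 and 33.0 CPM in baicalin, against 24.1, 27.2 and 25.9 CPM in DMSO, a 1.28-fold rise (adjusted p = 2.97e-05). Serpinb9b, its neighbour on chromosome 13, had 8.85, 9.49 and 10.02 CPM in baicalin, against 3.79, 3.60 and 3.29 CPM in DMSO, and rose 2.65-fold (adjusted p = 7.53e-12). Neither gene's ranges overlapped. Serpinb1b, a relative of the neutrophil elastase inhibitor Serpinb1a, had 63, 78 and 87 reads in baicalin, against 7, 16 and 12 reads in DMSO, a 6.78-fold rise (adjusted p = 1.97e-12). Serpinb1a itself had 41, 41 and 57 reads in baicalin, against 50, 48 and 53 reads in DMSO, with overlapping groups and no call (log2 fold change -0.04, SE 0.23, adjusted p = 0.872). Serpinb9g was called higher on few reads, 12, 20 and 11 in baicalin, against 3, 5 and 0 in DMSO (5.43-fold, adjusted p = 0.000231). Only 45.2% of its 50-base words were in no other transcript, with 46.0% shared with Gm11397, so it is uncertain. Serpinb1b and Serpinb9g did not reach the filter's level in all 3 DMSO libraries. They were tested only through baicalin, the group where they are high, which limits what their adjusted p-values can show.

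The only serpin called lower was Serpinb8, whose human counterpart inhibits the convertase furin. It had 7.10, 7.29 and 7.28 CPM in baicalin, against 9.75, 11.1 and 8.44 CPM in DMSO (log2 fold change -0.43, SE 0.13, adjusted p = 0.00289). All DMSO libraries were higher, and on the log2(FPKM + 1) scale without a filter the call was lost (adjusted p = 0.0795). Serpinb7 had 19, 22 and 23 reads in baicalin, against 18, 29 and 14 reads in DMSO, with overlapping groups and no call (log2 fold change 0.14, adjusted p = 0.732). Of the 12 clade B genes on chromosome 1, Serpinb2, Serpinb7 and Serpinb8 could be tested and 5 had no read. The untested clade B genes with at least 10 reads over all libraries were Serpinb9c with 47, Serpinb9e with 29, Serpinb6b with 19, Serpinb5 with 14, Serpinb1c with 12 and Serpinb9f with 10. Serpinb9e had 10, 2 and 15 reads in baicalin, against 1, 0 and 1 in DMSO, a spread within baicalin that is wide for so few reads.

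Serpinb2 and other clade B genes are also expressed in macrophages and keratinocytes. The 6 macrophage markers summed to 3.05 to 5.01 CPM in baicalin and 2.17 to 2.52 CPM in DMSO, with 1 of 2 tested genes higher and Ptprc, Adgre1 and Itgam under 10 reads each. Of 5 keratinocyte markers 2 were tested and both were higher, with sums of 19.9 to 21.3 CPM in baicalin and 8.24 to 9.10 CPM in DMSO, while the keratin genes Krt5, Krt14 and Krt1 had no read. The part of such cells in the clade B values was not tested. Of 17 listed intracellular and granule proteases 7 were tested, with 5 higher and none lower (median 0.25), against 33.6% higher and 34.1% lower over all tested genes. The cathepsin genes Ctsl (log2 fold change 1.07) and Ctsb (0.77) were higher, as were the caspase gene Casp8 (0.25) and Ctsk (0.13). The call of Casp8 was lost without DMSO replicate 2 (adjusted p = 0.0853), in DESeq2 (adjusted p = 0.0555) and with library size alone (adjusted p = 0.232). Ctsk, itself at an adjusted p of 0.050, lost its call in 10 of 16 alternatives, among them DESeq2 (adjusted p = 0.102), limma-voom (adjusted p = 0.0513), library size alone (adjusted p = 0.966) and leaving out DMSO replicate 3 (adjusted p = 0.400) or, with an adjusted p of 0.112, replicate 1 of baicalin. The granzyme genes Gzma, Gzmb and Gzmk had at most 2 reads each and Ctsg none.

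**Figure D4:**
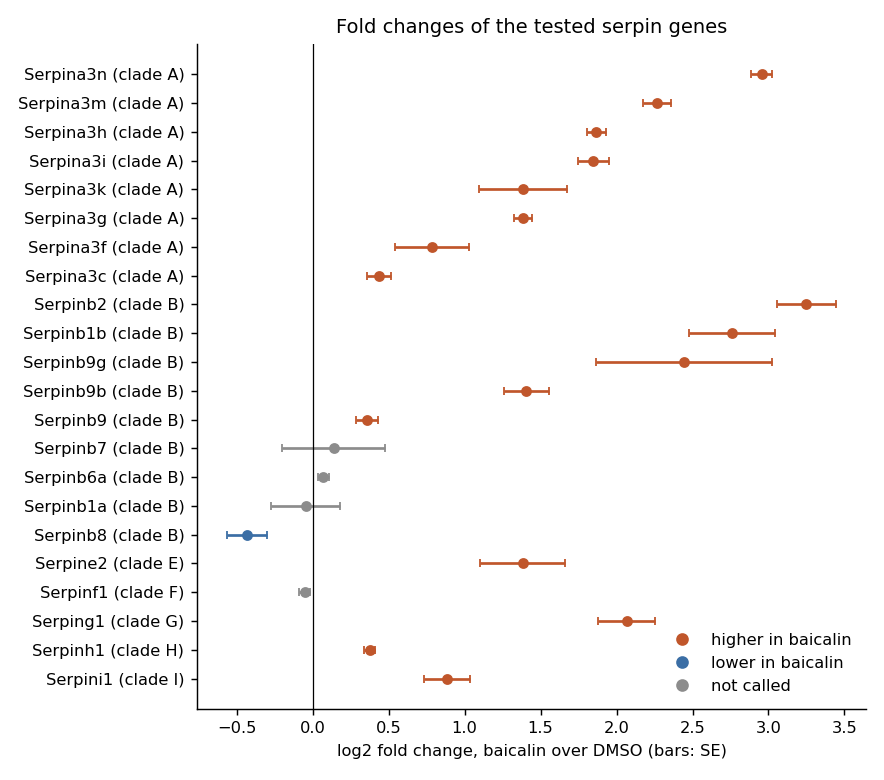
Log2 fold changes (baicalin over DMSO) of tested serpins with their standard errors, grouped by clade. Serpinb2 has the largest value at 3.25, and Serpinb8, at -0.43, is the only one called lower.

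Serpinh1 (ENSMUSG00000070436, chromosome 7, 99345376 to 99353239, minus strand) encodes HSP47, which inhibits no protease but holds procollagen in the endoplasmic reticulum while it folds. It was the serpin with the most reads, at 1020, 1017 and 1008 CPM in baicalin, against 780, 795 and 775 CPM in DMSO. The rise was small and even, 1.30-fold (log2 fold change 0.37, SE 0.04, adjusted p = 2.94e-13), and the groups did not overlap. Of 30 listed collagens and folding partners 28 were tested, with 17 higher and 8 lower (median 0.40). Most of the higher calls were of folding and modifying genes and most of the lower calls of collagens, which went both ways. The chaperone gene Hspa5 (1.21), the prolyl hydroxylase genes P4ha2 (1.22), P4ha1 (0.76) and P4hb (0.80) and the lysyl hydroxylase gene Plod3 (0.72) were higher on the log2 scale. Among its clients Col1a1 (-0.55) and Col11a1 (-1.43) were lower and Col3a1 (0.44) was higher. The FPKM ratio of Serpinh1 to Col1a1 was 1.419, 1.38 and 1.35 in baicalin, against 0.752, 0.726 and 0.705 in DMSO, with no overlap (exact permutation p = 0.1, the smallest possible). This ratio concerns a client that fell and does not hold for every client. Mean FPKM of Col3a1 was 298 in baicalin and 218 in DMSO, while that of Serpinh1 was 423 in baicalin and 323 in DMSO. Ratios to clients other than Col1a1 were not computed.

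Serpinf1 (ENSMUSG00000000753, chromosome 11, 75409769 to 75422701, minus strand) encodes PEDF, a secreted factor that inhibits no protease and is an abundant product of fat cells. It had 510, 505 and 509 CPM in baicalin, against 537, 516 and 526 CPM in DMSO. The difference of -0.05 on the log2 scale (SE 0.04) was not called (adjusted p = 0.207), although the groups did not overlap. Scaling by library size alone moved the median over all genes by -0.13 on the log2 scale, and Serpinf1 was then called lower at -0.18. Of 12 listed receptors and ligands of these serpins 9 were tested, with 7 higher and 1 lower (median 0.62). Pnpla2, the triglyceride lipase that binds PEDF, was higher (0.50), as were the glypican gene Gpc1 (2.61), the laminin receptor gene Rpsa (0.78) and Sdc1 (0.62), and Lrp6 was lower (-1.31).

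Serping1 (ENSMUSG00000023224, chromosome 2, 84765387 to 84775444, minus strand), the C1 inhibitor, which blocks the first complement proteases and plasma kallikrein, had 119, 119 and 145 reads in baicalin, against 32, 36 and 28 reads in DMSO. It rose 4.19-fold (log2 fold change 2.07, SE 0.19, adjusted p = 6.06e-14), with no overlap. Of its targets C1ra was not called (-0.02, adjusted p = 0.671), although with library size alone it was called lower (-0.15, adjusted p = 0.00088), and C1rb (-0.27), C1s1 (-0.15) and C1s2 (-0.16) were lower. C1s2 lost its call in 8 of 16 alternatives, with adjusted p between 0.0175 and 0.456 when 1 library was left out; the libraries that ended it were DMSO replicates 2 and 3 and baicalin replicate 2. In the list of complement C1 and the contact system 10 of 16 genes were tested, with 5 higher and 4 lower (median 0.32), among them Masp1 (0.67) and the bradykinin receptor gene Bdkrb2 (4.98). The contact factor genes F11 and F12 had no read and Klkb1, plasma kallikrein, had 5.

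Of 25 listed protease inhibitors outside the family 14 were tested, with 7 higher and 6 lower (median 0.07), against 33.6% higher and 34.1% lower over all tested genes. Slpi, an inhibitor of neutrophil elastase, was higher by 4.21 and the metalloproteinase inhibitor gene Timp1 by 1.61 on the log2 scale. Pi15 (-1.48), the membrane-anchored inhibitor gene Reck (-0.72) and the cystatin gene Cst3 (-0.43) were lower. All partner lists share the 6 libraries with the serpins, and their counts are descriptions without a test of the lists.

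**Figure D5:**
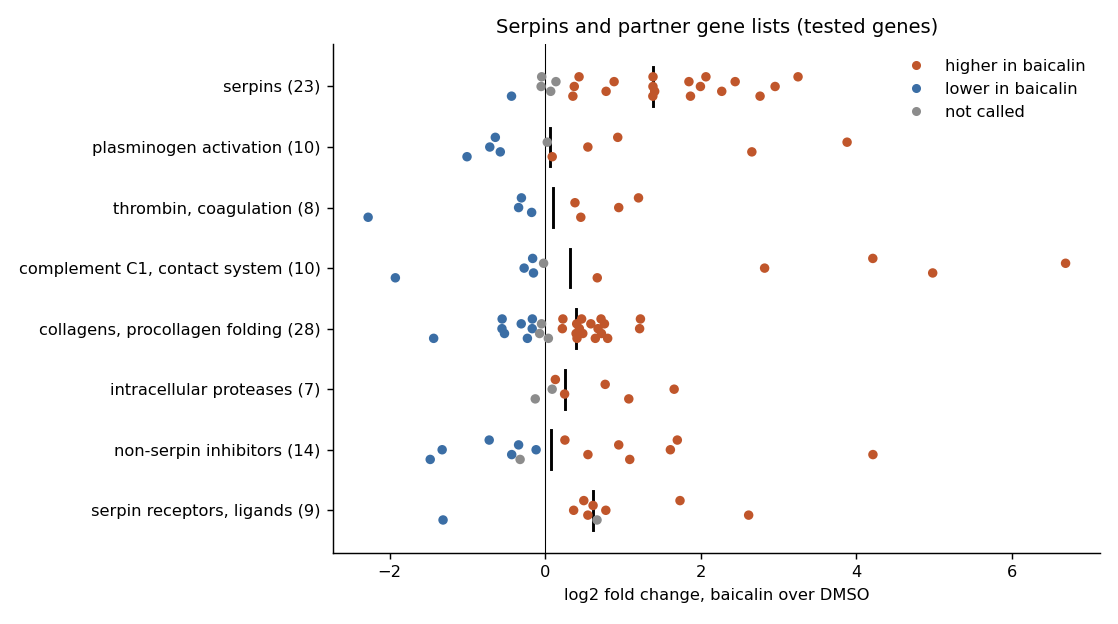
Log2 fold changes (baicalin over DMSO) of the 23 tested serpins and of the tested genes of 7 partner lists, 1 point per gene with a black line at the median and the number of genes in brackets. The median is 1.38 for serpins and lies between 0.06 and 0.62 for the other lists.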

How the data were processed

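The authors' deposited counts are raw read counts per gene, which the series design text credits to featureCounts 1.5.0-p3; the submitters' processing notes give mm10 as the build. The authors computed FPKM from these counts and gene lengths, per the same text. Relative to the TMM fit, log2 fold changes shifted by a median of 0.01 on the log2(FPKM + 1) scale and -0.13 with library size alone. The FPKM therefore do not behave as values scaled by library size alone, and their sums are not shares of all transcripts. The sources used here name no aligner, annotation or strand setting. All 63 serpin names matched GENCODE M21, which supplied coordinates, and 5 names with -ps were left out. Members and lists were chosen with earlier results of these data known.

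The test was the robust quasi-likelihood fit of edgeR 4.0.16 under R 4.3.3, after filterByExpr and TMM scaling of the counts, with treatment as its sole term. Adjusted p-values are Benjamini-Hochberg values over all 13728 tested genes, and genes under 0.05 are called. CPM values use TMM factors. FPKM served for levels between genes. Results of some genes are not reported here, although they stay in the counts. The other tested serpins are named, and untested ones with under 10 reads mostly only counted. Of each partner list up to 6 called genes with a mean of at least 5 CPM are named by smallest p, besides fixed genes. Alternatives were DESeq2 1.42.0, limma-voom (limma 3.58.1), other scalings and filters, the replicate block, limma-trend on log2(FPKM + 1) or log2(FPKM + 0.1), and leaving out each library. The test was checked on simulated counts. Replicates differed by more than sampling noise (chi-square per degree of freedom 2.83 to 4.35).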

Additional observations from a re-analysis of the deposited data

How the results depend on the processing

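The number of serpins called higher was 18 of 23 tested and lay between 15 and 22 over the alternatives. The 15 came from 20 tested serpins on the log2(FPKM + 0.1) scale, where 55.0% of the calls over all genes were higher. The 22 came from 50 tested serpins without the low-count filter, where 51.3% of all calls were higher. On leaving out 1 library each, 18 to 21 were called higher of 24 to 27 tested, with 49.8% to 50.3% of all calls higher. The number called lower was 1 on leaving out any library, 2 with library size alone, where Serpinf1 joined Serpinb8, and 0 on the log2(FPKM + 1) scale without a filter. Of the values of single serpins tested under an alternative, 356 kept their side of the threshold, 2 gained a call and 4 lost one. The 356 include the summed Serpina3 row, entered under Serpina3n. Alternatives that did not test a gene are left out of these numbers. Serpinb9g entered 13 alternatives and Serpine2 and Serpinb7 entered 14 each, against 16 for Serpinh1. Serpina3f lost its call without DMSO replicate 3 and on the log2(FPKM + 0.1) scale (adjusted p = 0.0565) and the unfiltered log2(FPKM + 1) scale (adjusted p = 0.124), and Serpinb8, Serpinb6a and Serpinf1 changed as given above. The cause was not tested. Fold changes of low genes were smaller on the unfiltered log2(FPKM + 1) scale, 0.25 instead of 1.38 for Serpine2. Same-numbered libraries of the 2 groups did not deviate together (correlations 0.0534, 0.0514 and -0.00435). With the replicate block 18 serpins were called higher and 1 lower, and no serpin call changed. Serpins without a read, and those with a few, cannot be compared at this depth.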
